A study of Mus musculus with 4 samples.

Results

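The genes described here are 10 components of the cell-to-cell junctions of the heart, measured in poly(A) RNA of mouse heart in 4 libraries. They are the cardiac and vascular connexins Gja1, Gja4, Gja5 and Gjc1, the scaffold gene Tjp1, the adherens junction gene Cdh2, and the desmosome genes Pkp2, Dsp, Dsg2 and Jup. They were chosen by gene symbol, and each matched 1 row of the 55401 genes in the deposited table. Gja1, Cdh2, Pkp2, Dsp, Dsg2 and Jup, 6 of the 10, carry the pathway term for arrhythmogenic right ventricular cardiomyopathy in that table. The MI libraries (n = 2) are of heart tissue after a ligation, the operation that causes a myocardial infarction. The Sham libraries (n = 2) are of heart tissue after the chest was opened without it. All are from day 28. The series title names cyanidin, and tissue treated with it was not analysed here. The study's design text contrasts infarcted tissue with normal left ventricle, while the sample labels say heart, and which region each library holds is not stated. Strain, age and sex were not given in the sources used here, and nothing states that replicates came from separate animals.

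Heart muscle cells meet end to end at the intercalated disc, where 3 kinds of junction lie together. Gap junctions are channels built from connexins and pass current from cell to cell. Adherens junctions and desmosomes hold the cells together through cadherins, which bind across the gap and are tied inside the cell to actin or to desmin filaments. The discs and their connexins have long been studied in infarcted hearts because slowed or uneven conduction at a scar can start an arrhythmia. In bulk tissue, fewer cells of a type and less RNA per cell cannot be told apart.

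Total estimated counts lay between 72857907 and 75979320 in the MI libraries and between 66624106 and 72485370 in the Sham libraries. The libraries also differed in which other tissue they held. Sham replicate 2 carried atrial and fat transcripts, and 6 fat cell markers summed to 0.01 and 0.43 FPKM in the MI libraries, against 0.05 and 142.5 FPKM in the Sham libraries. FPKM is a level scaled to exon length and library size. Myl7, the atrial myosin light chain, stood at 1.20 and 0.41 FPKM in MI replicates 1 and 2, against 0.46 and 1128 FPKM in Sham replicates 1 and 2. MI replicate 1 carried lung transcripts. Its 11 lung markers summed to 292 FPKM with none at 0, against 0.43 in MI replicate 2 and 0.31 and 1.38 in the Sham libraries, where 8, 9 and 5 of them were at 0.

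Across the 10 genes the log2 differences (MI minus Sham) were small, and 0 passed an adjusted p under 0.05 over all genes tested in edgeR or DESeq2. Among 18475 genes tested, edgeR called 0% at that level (smallest adjusted p = 0.185). DESeq2 called 4.07% of the 15609 genes to which it gave an adjusted p, 2.58% higher and 1.49% lower. At an unadjusted p under 0.05 in edgeR, Gja1, Gjc1 and Tjp1 were higher in MI and Dsg2 was lower, 4 of 10, where 11.6% of all genes lay at that level (7.12% higher and 4.51% lower). DESeq2 gave the same 4 genes at an unadjusted p. Each of these differences was near 1.5-fold or its inverse. Both limma fits, on log2(FPKM + 1) and log2(FPKM + 0.1), gave Gja1, Gja4, Gjc1, Tjp1 and Jup at an unadjusted p, 5 higher and 0 lower. In those fits 13.9% and 13.7% of all genes lay at that level, 86.9% and 86.4% of these higher. Without Sham replicate 1 the log2 difference in edgeR was 0.41 for Gja1 and -1.16 for Gja5. The edgeR count also depended on the MI libraries. It was 0 without MI replicate 1, and without MI replicate 2 it was 2, Dsg2 and Cdh2, both lower. 5 genes were higher in both MI libraries than in both Sham libraries, as were 24.9% of all genes, and 1 was lower, as were 21.9%. Together these 6 of 10 compare with 46.7% of all genes. All 10 genes passed the filter on low counts, and their median log2 difference was 0.19, against 0.00 for all genes tested. For 2 libraries against 2, the smallest 2-sided p of an exact permutation test is 0.333.

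**Figure D1:**
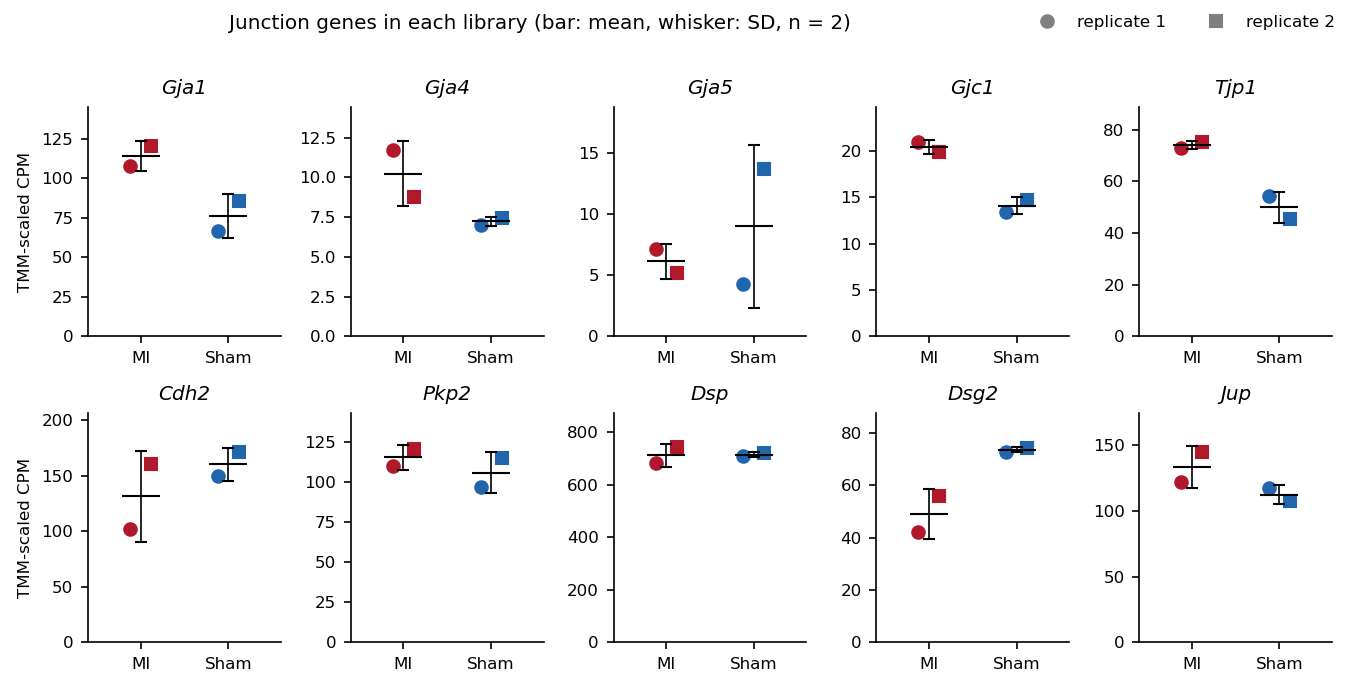
CPM (counts relative to library size, TMM-scaled) of the 10 junction genes in each library. Circles and squares are replicates 1 and 2, bars the means and whiskers the SD (n = 2). Gja1, Gja4, Gjc1, Tjp1 and Jup were higher in both MI libraries than in both Sham libraries, Dsg2 was lower in both, and the other 4 genes overlapped.

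The upstream sequences of the connexins and of Tjp1 are shown because Gja1 and Tjp1 differed in the same direction while Gja5 followed another pattern. None of these differences passed an adjusted p under 0.05 in edgeR, and a link between sequence and level was not tested. The RefSeq promoter table (GRCm38.p6) held 6 of the 10 genes (Gja1, Gja4, Gja5, Tjp1, Dsp and Jup). Given are the 250 bases before each RefSeq start, 5′ to 3′ on the gene's strand, with matches in capitals. 6 motifs were searched on both strands. The GC box, bound by Sp factors, was searched as GGGCGG, and the AP-1 motif as TGANTCA. The box bound by the general initiation machinery near many starts, called TATA, was searched as TATAAA. Motifs of cardiac factor families were GGTGTGA for T-box factors, AGATAA for zinc finger factors of the GATA family, and TNAAGTG for homeobox factors of the NKX family. The windows are chr10:56377050-56377299 on the plus strand for Gja1, chr4:127314040-127314289 on the minus strand for Gja4, chr3:97032152-97032401 on the plus strand for Gja5, and chr7:65371245-65371494 on the minus strand for Tjp1.
Gja1: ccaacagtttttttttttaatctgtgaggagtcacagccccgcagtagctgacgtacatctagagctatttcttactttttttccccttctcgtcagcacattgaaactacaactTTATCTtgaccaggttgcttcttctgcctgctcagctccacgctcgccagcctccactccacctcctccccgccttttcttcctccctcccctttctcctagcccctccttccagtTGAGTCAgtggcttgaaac
Gja4: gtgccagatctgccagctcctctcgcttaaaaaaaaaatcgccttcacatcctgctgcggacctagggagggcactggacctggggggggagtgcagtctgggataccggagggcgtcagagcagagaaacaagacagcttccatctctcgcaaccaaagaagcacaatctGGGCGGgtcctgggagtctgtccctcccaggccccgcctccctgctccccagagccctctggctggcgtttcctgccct
Gja5: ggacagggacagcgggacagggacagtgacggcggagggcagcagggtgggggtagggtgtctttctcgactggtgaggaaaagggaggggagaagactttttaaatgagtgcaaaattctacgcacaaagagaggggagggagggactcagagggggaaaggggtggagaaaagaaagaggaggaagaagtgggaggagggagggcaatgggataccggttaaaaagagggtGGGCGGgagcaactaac
Tjp1: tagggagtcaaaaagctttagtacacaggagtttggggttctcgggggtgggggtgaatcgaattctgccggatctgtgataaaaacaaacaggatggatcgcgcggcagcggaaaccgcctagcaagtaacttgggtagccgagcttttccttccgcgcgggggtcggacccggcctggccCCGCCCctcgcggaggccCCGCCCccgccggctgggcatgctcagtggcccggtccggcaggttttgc
The Gja1 window held TGAGTCA, a match to the AP-1 motif that reads on both strands, starting 19 bases before the start. AP-1 is the dimer of Fos and Jun proteins. That motif was in 6.75% of the 32851 promoters of the table. The Gja1 window also held a GATA match on the opposite strand 135 bases before the start (9.99% of promoters). GC boxes were found in the windows of Gja4, Gja5 and Tjp1, and in those of Dsp and Jup, but not in that of Gja1 (32.7% of promoters). The T-box, NKX and TATA motifs were in 0 of the 6 windows, and in 3.33%, 10.1% and 12.4% of all promoters. These are matches of letters, and no binding was measured. The Tjp1 window lies inside the annotated gene, which runs from 65296165 to 65527696 on the minus strand. An annotated Tjp1 transcript thus starts far upstream of the RefSeq start used.

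Gja1 encodes connexin43, the main gap junction protein of ventricular muscle, also made by fibroblasts and vascular cells (ENSMUSG00000050953, chromosome 10, 56377330 to 56402513, in the coordinates of the deposited table, as for the genes below). Its level was 107.5 and 120.5 CPM in MI replicates 1 and 2, against 66.4 and 85.8 CPM in Sham replicates 1 and 2. The groups did not overlap, and the Sham libraries differed from each other more than the MI libraries did. Gja1 averaged 114 ± 9.2 CPM in MI and 76.1 ± 13.7 CPM in Sham (SD, n = 2), a log2 difference of 0.58 ± 0.17 (SE; edgeR adjusted p = 0.348). The difference kept its sign in each fit with 1 library left out, between 0.41 without Sham replicate 1 and 0.78 without Sham replicate 2. It stayed at an unadjusted p under 0.05 without Sham replicate 2 and missed it without each of the other 3 libraries.

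Gjc1 encodes connexin45, known from nodal tissue, the developing heart and vascular muscle (ENSMUSG00000034520, chromosome 11, 102799579 to 102819179). It stood at 20.9 and 19.9 CPM in the MI libraries, against 13.4 and 14.7 CPM in the Sham libraries. The groups did not overlap, and the replicates within each group lay close together. The log2 difference was 0.54 ± 0.15 (edgeR adjusted p = 0.339). It ran between 0.47 without Sham replicate 1 and 0.60 without Sham replicate 2. Of 10 markers of the conduction system, 9 were tested, and 0 were higher and 1 lower at an unadjusted p (Hcn4, the pacemaker channel, -0.56 ± 0.21). Their median was -0.54. It was 0.07 when the atrial-bearing Sham replicate 2 was left out, and 4 markers were lower without Sham replicate 1. Their FPKM summed to 4.54 and 4.73 in the MI libraries, against 4.39 and 5.78 in the Sham libraries.

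Gja4 encodes connexin37, a gap junction protein of arterial endothelium (ENSMUSG00000050234, chromosome 4, 127311421 to 127314039). It had 11.7 and 8.80 CPM in the MI libraries, against 7.02 and 7.44 CPM in the Sham libraries. Both MI libraries were above both Sham libraries, with MI replicate 1, the library with lung transcripts, the highest. The log2 difference of 0.50 ± 0.22 did not reach an unadjusted p under 0.05 in edgeR (adjusted p = 0.463). It was 0.29 without MI replicate 1 and 0.71 without MI replicate 2. Relative to Cdh5, the cadherin of endothelial junctions, the Gja4 FPKM ratio was 0.110 and 0.101 in the MI libraries and 0.103 and 0.0929 in the Sham libraries. These ratios overlapped between the groups. Relative to Pecam1, another endothelial adhesion gene, the ratio was 0.209 and 0.164 in the MI libraries and 0.152 and 0.154 in the Sham libraries, with no overlap. The ratios were chosen after values were seen and were not tested.

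Endothelial markers were measured beside Gja4. Of 10 arterial endothelial markers, 6 were higher and 0 lower at an unadjusted p (DESeq2 called 4 higher), with a median log2 difference of 0.73. Dll4, a Notch ligand of arteries, had 25.4 and 24.6 CPM in the MI libraries, against 11.6 and 13.0 CPM in the Sham libraries. Of 10 general endothelial markers 3 were higher and 0 lower, with a median of 0.38. That count was 1 without MI replicate 1, and 9 in limma on log2(FPKM + 1). No marker of either list passed an adjusted p under 0.05 in edgeR, and DESeq2 called 1 general marker higher. The arterial list summed to 41.8 and 33.1 FPKM in the MI libraries against 18.2 and 20.4 FPKM in the Sham libraries, and 0 markers of either list were at 0 in any library. The part of endothelial cells in the Gja4 values was not tested. Nor was the part of lung tissue in the Gja4 and arterial marker values of MI replicate 1. Without MI replicate 1, 3 arterial markers were higher at an unadjusted p, and without MI replicate 2 there were 2. Without Sham replicate 1, 8 were higher and 1 lower.

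Gja5 encodes connexin40, the gap junction protein of atrial muscle, the ventricular conduction system and arterial endothelium (ENSMUSG00000057123, chromosome 3, 96904693 to 97077416). It had 7.14 and 5.13 CPM in the MI libraries, against 4.26 and 13.7 CPM in the Sham libraries. The highest and the lowest value were both in Sham. The counts stand for about 149 and 100 fragments in the MI libraries (95% exact Poisson intervals 126 to 175 and 81.4 to 122), against 68 and 222 in the Sham libraries (52.8 to 86.2 and 194 to 253). These intervals cover counting error only. The log2 difference was -0.55 ± 0.58 (edgeR adjusted p = 0.747), and its sign depended on the Sham libraries. Without Sham replicate 2 it was 0.53 ± 0.31 (edgeR adjusted p = 0.470), and without Sham replicate 1 it was -1.16 ± 0.27 (edgeR adjusted p = 0.196).

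The summed atrial markers, like Gja5, were highest in Sham replicate 2 and lowest in Sham replicate 1. Single markers could differ in order, and Myl7 was lowest in MI replicate 2 (0.41 FPKM, against 0.46 in Sham replicate 1). Without Nppa, which ventricular muscle also makes under load, the other 7 of 8 atrial markers summed to 43.1 and 35.02 FPKM in the MI libraries, against 22.8 and 1607 FPKM in the Sham libraries. Outside Sham replicate 2, Myl7, Myl4 and Sln each stood at 1.20 FPKM or less. The sums of those libraries thus came mostly from the rest of the list, and their order need not follow atrial tissue. With Nppa the sums were 2675 and 1890 FPKM in MI and 174 and 5123 FPKM in Sham. Sln, sarcolipin of atrial muscle, was at 0.10 and 0 FPKM in the MI libraries and at 0 and 121 FPKM in the Sham libraries. 1 atrial marker in MI replicate 2 and 2 in Sham replicate 1 were at 0. The part of atrial tissue in the Gja5 value of Sham replicate 2 was not tested. An annotated Gja5 transcript starts far upstream of the RefSeq start, and an exon of the gene overlaps an exon of Gpr89 on the other strand, which had between 762 and 1006 counts. Whether counting used strand is not stated, so the Gja5 level is uncertain.

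**Figure D2:**
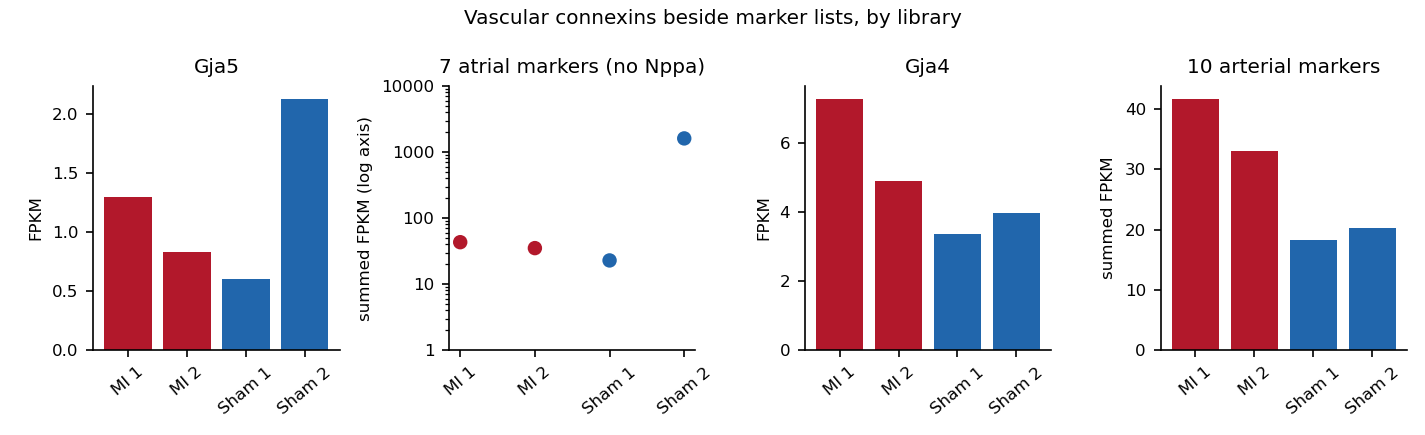
FPKM of Gja5 and Gja4 in each library, beside the summed FPKM of 7 atrial markers without Nppa (log axis) and of 10 arterial endothelial markers. Gja5 and the atrial markers were both highest in Sham 2 (2.13 and 1607 FPKM). Gja4 and the arterial markers were both highest in MI 1 (7.27 and 41.8 FPKM), the library with lung transcripts.

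Within the sum of the 4 connexins, Gja1 made up 45.9% and 53.8% of the FPKM in the MI libraries, against 46.0% and 46.2% in the Sham libraries, a difference of means of 3.72 percentage points. Without MI replicate 2 the difference was -0.25 points. Gja4 took 30.4% and 23.9% in MI and 29.6% and 24.4% in Sham, and the groups overlapped. Gjc1 took 18.3% and 18.2% in MI and 19.1% and 16.2% in Sham. Gja5 took 5.43% and 4.07% in MI, and 5.29% and 13.1% in Sham. The summed connexin FPKM was 23.9 and 20.4 in the MI libraries, above the 11.3 and 16.2 of the Sham libraries.

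The level of Gja1 relative to the other connexins depended on which gene length was used. Counts divided by FPKM gave a length of 11158 to 11219 bases for Gja1, near the 10257 bases of all its annotated exons joined, while its longest coding transcript has 3182. For Gja4, which has 1 annotated transcript of 1685 bases, the same division gave 1831 to 1843. Counting per longest coding transcript, Gja1 took 65.3% and 71.3% of the connexin signal in MI and 65.2% and 65.0% in Sham. Comparisons of a gene with itself between groups do not use the length.

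**Figure D3:**
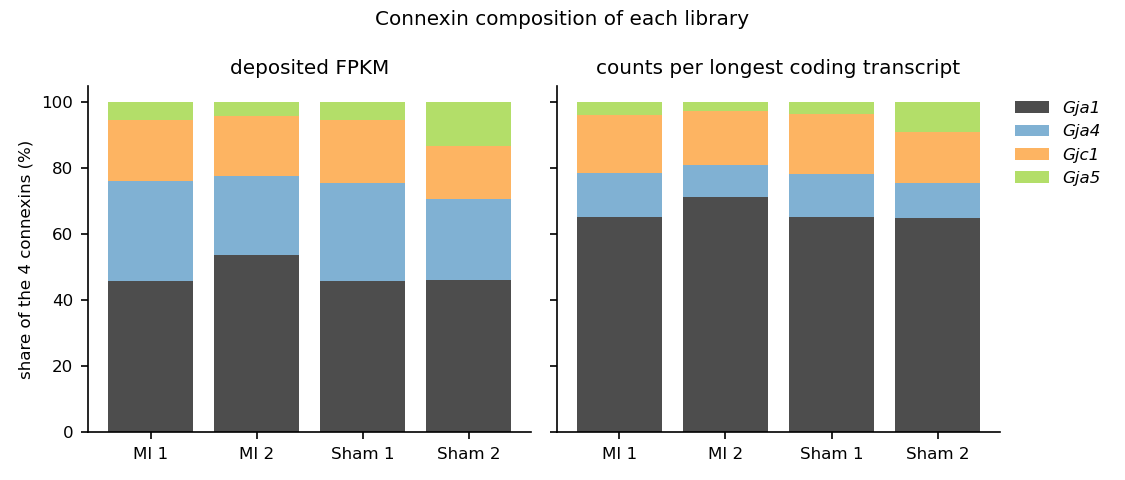
Share of each connexin in the sum of the 4, in percent, for each library, by deposited FPKM (left) and by counts per longest coding transcript (right). Gja1 was the largest part in every library on both scales, and Gja5 was larger in Sham 2 (13.1% of FPKM) than in the other libraries (4.07% to 5.43%).

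Tjp1 encodes ZO-1, the scaffold that binds the tail of connexin43 and borders gap junction plaques (ENSMUSG00000030516, chromosome 7, 65296165 to 65527696). It had 72.9 and 75.3 CPM in the MI libraries, against 54.2 and 45.6 CPM in the Sham libraries. The groups did not overlap, and the lowest MI library exceeded the highest Sham library by more than the MI libraries differed. The log2 difference was 0.57 ± 0.14 (edgeR adjusted p = 0.327), and DESeq2 gave it an adjusted p of 0.0695, the lowest of the 10 genes. It lay between 0.45 without Sham replicate 2 and 0.70 without Sham replicate 1. The FPKM ratio of Tjp1 to Gja1 was 0.890 and 0.820 in the MI libraries and 1.07 and 0.697 in the Sham libraries, so the MI ratios lay between the Sham ones.

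Tjp1 is also a tight junction gene. Of 22 other genes of tight junctions, 17 were tested, 1 was higher and 0 lower at an unadjusted p, and the median was 0.13. Cldn15, a claudin, was the 1 higher gene, with 9.04 and 5.66 CPM in MI against 4.09 and 3.40 CPM in Sham (log2 difference 0.97 ± 0.31). Esam, an adhesion molecule of endothelial tight junctions, had 0.32 ± 0.14, and F11r, junctional adhesion molecule A, had 0.13 ± 0.16. The list's count was 0 of 17 without MI replicate 1, the library with lung transcripts, and 2 of 21 higher without MI replicate 2. It was 3 of 21 higher without Sham replicate 2, and 1 higher and 2 lower of 21 without Sham replicate 1. In limma on log2(FPKM + 1) 3 of 17 were higher.

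Cdh2 encodes N-cadherin, the cadherin of the disc's adherens junctions (ENSMUSG00000024304, chromosome 18, 16588877 to 16809246). It had 102 and 160 CPM in the MI libraries, against 150 and 171 CPM in the Sham libraries. MI replicate 1 was low, and MI replicate 2 lay between the Sham libraries. The log2 difference of -0.29 ± 0.25 (edgeR adjusted p = 0.688) became 0.0088 without MI replicate 1 and -0.63 without MI replicate 2. MI replicate 1 was the library with lung transcripts, and the part of that tissue in the Cdh2 value was not tested. Cdh1, the cadherin of epithelia, stood at 0.39 FPKM there, against 0.01 in MI replicate 2 and 0 in both Sham libraries. It was chosen after its values were seen.

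Catenins, vinculin and afadin tie cadherins and nectins to actin. Of 19 catenin, nectin and other adherens junction genes 18 were tested, 5 were higher and 0 lower at an unadjusted p, and the median log2 difference was 0.27. The 5 were Ctnnb1, Vcl, Tln1, Afdn and Arvcf, a catenin that was named after its value was seen. Ctnnb1, which encodes beta-catenin, had 301 and 316 CPM in the MI libraries, against 230 and 234 CPM in the Sham libraries (0.41 ± 0.12). Vcl (vinculin) and Tln1 (talin), which link adhesions to actin, had 0.49 ± 0.14 and 0.43 ± 0.13. Afdn (afadin), the nectin partner, had 0.43 ± 0.13, and for each of these 4 genes the groups did not overlap. Ctnna1, alpha-catenin, differed by -0.04 ± 0.14. These genes are made by many cell types, and the count was 0 without MI replicate 1, 0 without MI replicate 2 and 1 with the replicate number as a block.

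Among the desmosome genes, Dsg2 was lower in MI while Dsp, Pkp2 and Jup were not at an unadjusted p. Dsg2 encodes desmoglein 2, the desmosomal cadherin of heart muscle (ENSMUSG00000044393, chromosome 18, 20558074 to 20604521). It had 42.2 and 55.8 CPM in the MI libraries, against 72.8 and 74.2 CPM in the Sham libraries. The groups did not overlap, and the Sham libraries were close together. Dsg2 averaged 49.0 ± 9.59 CPM in MI and 73.5 ± 0.95 CPM in Sham (SD, n = 2), with a log2 difference of -0.58 ± 0.17 (edgeR adjusted p = 0.347). It was -0.39 without MI replicate 1, where it missed an unadjusted p under 0.05, and -0.79 without MI replicate 2. In limma on log2(FPKM + 1), where the median of all genes was 0.10, it was -0.33 and missed that level. An antisense gene overlaps its exons with at most 12 counts in a library.

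Dsp encodes desmoplakin, which anchors the desmosome to desmin filaments and had the highest FPKM of the 10 genes in every library, 73.9 and 71.9 in MI and 59.2 and 66.8 in Sham (ENSMUSG00000054889, chromosome 13, 38151294 to 38198577). It had 681 and 743 CPM in the MI libraries, against 709 and 721 CPM in the Sham libraries. The Sham values lay inside the MI range. The log2 difference was -0.01 ± 0.14 (edgeR adjusted p = 0.99). On the FPKM scale it was 0.21 ± 0.11, so its sign depends on the scaling.

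Pkp2 encodes plakophilin 2, which joins desmosomal cadherins to desmoplakin (ENSMUSG00000041957, chromosome 16, 16213318 to 16248489). It had 110 and 121 CPM in the MI libraries, against 96.9 and 115 CPM in the Sham libraries, and the groups overlapped (log2 difference 0.13 ± 0.15, edgeR adjusted p = 0.774). The Pkp2 difference was 0.0094 without Sham replicate 1 and 0.25 without Sham replicate 2. Jup encodes plakoglobin, the catenin of both desmosomes and adherens junctions (ENSMUSG00000001552, chromosome 11, 100368958 to 100397749). It had 122 and 145 CPM in the MI libraries, against 117 and 108 CPM in the Sham libraries. The groups did not overlap, by a narrow gap. The log2 difference was 0.25 ± 0.15 (edgeR adjusted p = 0.564). It was 0.38 without MI replicate 1 and 0.13 without MI replicate 2. On scales that moved the median of all genes upwards, Jup reached an unadjusted p under 0.05. It was 0.38 when mitochondrial transcripts were removed and counts were scaled to the remaining total without TMM, and 0.44 in limma on log2(FPKM + 1).

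Ratios of 2 genes within a library are free of the scaling between libraries. Dsg2 FPKM over Dsp FPKM was 0.0724 and 0.0878 in the MI libraries, against 0.120 and 0.120 in the Sham libraries. Dsg2 over Jup was 0.269 and 0.30 in MI, against 0.483 and 0.537 in Sham. Dsg2 over Dsc2, its partner cadherin desmocollin 2, was 1.53 and 1.45 in MI, against 2.37 and 1.87 in Sham. Each Dsg2 ratio was lower in both MI libraries than in both Sham libraries. Jup over Dsp was 0.269 and 0.293 in MI and 0.248 and 0.224 in Sham, and Pkp2 over Dsp was 0.291 and 0.293 in MI and 0.246 and 0.287 in Sham. These ratios were chosen after the values were seen and were not tested.

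**Figure D4:**
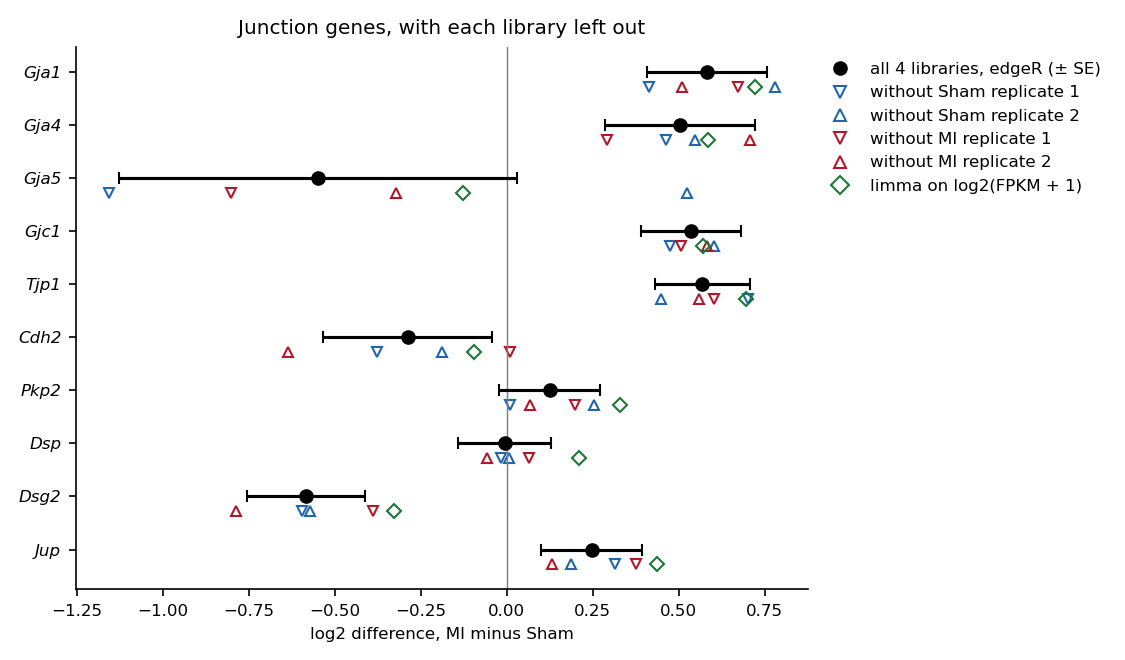
Log2 difference (MI minus Sham) of the 10 junction genes in edgeR with all 4 libraries (black, ± SE), with each library left out (open triangles) and in limma on log2(FPKM + 1) (diamonds). Gja1, Gja4, Gjc1, Tjp1, Pkp2 and Jup were above 0 and Dsg2 below 0 in each fit shown, while Gja5, Cdh2 and Dsp lay on both sides of 0.

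The rest of the desmosome list gave no gene at an unadjusted p. Of 15 genes 8 were tested, 0 were higher and 0 lower, and the median was 0.04. Des, the desmin filament itself, had 2010 and 2010 CPM in the MI libraries, against 2252 and 1772 CPM in the Sham libraries. Perp and Pkp4, a membrane protein and a plakophilin of desmosomes, differed by -0.07 ± 0.15 and 0.08 ± 0.19. Dsc2, named after its values were seen, had 3.50 and 4.34 FPKM in the MI libraries and 3.00 and 4.29 FPKM in the Sham libraries. 1 gene of the list was higher at an unadjusted p with mitochondrial transcripts removed or in limma, and 1 was lower without Sham replicate 1.

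Genes of the disc's scaffold and ion channels went in both directions. Of 19 genes tested, 4 were higher and 10 lower in MI with no overlap between the groups. Among all genes, 24.9% were higher and 21.9% lower in that way. At an unadjusted p under 0.05, 2 of the 19 were higher and 4 lower, and DESeq2 called 1 higher and 2 lower. Xirp2 and Dlg1 were the higher genes, and Scn4b, Popdc2, Cav3 and Bves the lower ones, with Dlg1, Cav3 and Bves named after their values were seen. The balance turned with the scaling, to 5 higher and 2 lower in limma on log2(FPKM + 1). It was 3 higher and 3 lower without mitochondrial transcripts and TMM. The median was -0.19, and 0.02 in limma on log2(FPKM + 1). Scn4b, a sodium channel beta subunit, had 13.5 and 10.3 CPM in MI, against 27.6 and 36.1 CPM in Sham (log2 difference -1.42 ± 0.22). Popdc2, a membrane protein of pacing and conduction, differed by -0.60 ± 0.13. Xirp2, an actin-binding protein of the disc, had 551 and 692 CPM in MI, against 365 and 343 CPM in Sham (0.81 ± 0.17). Nrap, which links the last sarcomere to the disc, had 0.02 ± 0.17, and Ldb3 of the Z-disc -0.14 ± 0.13. The counts were 2 higher and 2 lower without MI replicate 1, 1 and 1 without MI replicate 2, 1 and 3 without Sham replicate 1, and 3 and 4 without Sham replicate 2.

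Of 13 ventricular cardiomyocyte markers 0 were higher and 1 lower at an unadjusted p (Tnni3, cardiac troponin I, -0.59 ± 0.22), with a median of -0.17 that was 0.04 on the FPKM scale. Their summed FPKM was 18759 and 19110 in the MI libraries, against 18124 and 19693 in the Sham libraries, with 0 markers at 0. Per 1000 FPKM of these markers, Gja1 had 0.585 and 0.575 in MI, against 0.288 and 0.380 in Sham, and Tjp1 had 0.520 and 0.471, against 0.309 and 0.265. Dsg2 had 0.285 and 0.33 in MI, against 0.392 and 0.408 in Sham. Gja1 and Tjp1 were thus higher and Dsg2 lower per unit of muscle marker in both MI libraries. Gja4, Gjc1, Pkp2, Dsp and Jup were also higher in both, while Gja5 and Cdh2 overlapped. These are FPKM values, and in limma on log2(FPKM + 1) the median of all genes was 0.10, against 0.04 for the markers. In edgeR the markers had a median of -0.17, so a gene without a difference there can stand higher on this measure. Dsp, at -0.01 ± 0.14 in edgeR with overlapping groups, was such a gene. The share of all genes higher on this measure was not counted.

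Fibroblast and endothelial markers were also measured. Of 10 fibroblast markers 6 were higher and 0 lower at an unadjusted p (median 1.06), and DESeq2 called 6 higher at an adjusted p. The 10 fibroblast markers summed to 812 and 633 FPKM in MI, against 293 and 464 FPKM in Sham. The 10 endothelial markers summed to 737 and 618 FPKM in MI, against 487 and 439 FPKM in Sham. No marker of either list was at 0 in any library. Fibroblasts and vascular cells also make Gja1, Tjp1, Gjc1 and several catenins, and their part in those values was not tested.

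**Figure D5:**
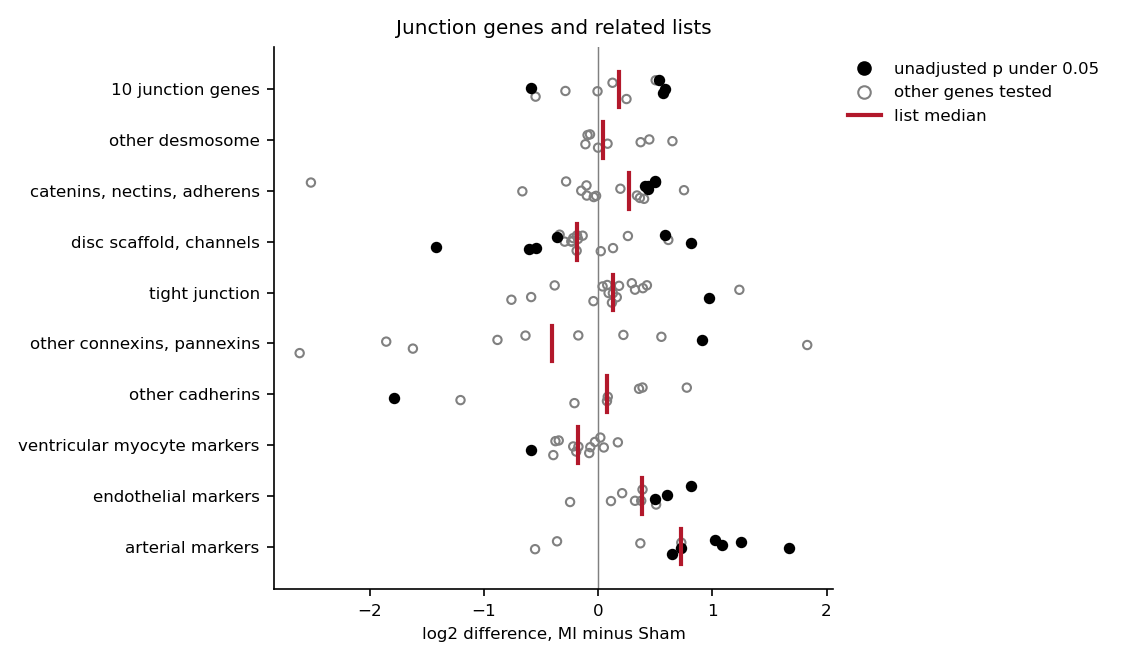
Log2 difference (MI minus Sham) of each gene tested, by list. Filled points have an unadjusted p under 0.05 in edgeR and red bars are list medians. The medians were 0.19 for the 10 junction genes, 0.27 for catenins and nectins, -0.19 for disc scaffold and channel genes, -0.17 for ventricular myocyte markers and 0.73 for arterial markers.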

How the data were processed

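Heart poly(A) RNA was made into strand-marked paired-end libraries, per the labels' protocols. The deposited table gives an estimated count and an FPKM per gene and library. Estimated counts are whole numbers, per the file headers and values, and the authors scaled FPKM for length and library size. Per the submitters' processing notes, HISAT2 2.0.4 and cutadapt 1.9 were used beside UMI-tools and StringTie 1.3.4d, with roles not given. The build is not given in the sources used here, but 99.5% of the identifiers occur in GENCODE M21 (GRCm38) and 93.8% have the same start and end. Low counts pile up at multiples of 4 (1148 to 1174 genes at 4, 284 to 331 at 3). For the Poisson intervals and an alternative fit, 4 counts were therefore taken as about 1 fragment. The other count fits used the counts as deposited, and their filter applies to those counts.

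Genes passing filterByExpr (min.count 10, min.total.count 15) were TMM-scaled and compared between MI and Sham, without covariates, by edgeR's quasi-likelihood test (2-sided; edgeR 4.0.16 in R 4.3.3). P-values were adjusted by Benjamini-Hochberg over all genes, at 0.05. DESeq2 1.42.0 and limma 3.58.1 on log2(FPKM + 1) or log2(FPKM + 0.1), other scalings and filters, a replicate block and each library left out were alternatives. Since no source says that the replicates are separate animals, p-values reflect only the variation among the 4 libraries, perhaps technical. The fits were tested on simulated data. With a set log2 change of 1, edgeR called 12 of 100 genes at an adjusted p and DESeq2 called 24 of 100. With a set change of 2 they called 69 and 79 of 100. Of 17614 unchanged genes they called 1 and 18. The members and lists were chosen with earlier results of these data known. Named besides the 10 genes are, for each list, up to 3 genes of highest mean FPKM and up to 3 of smallest unadjusted p under 0.05, of which a part is printed. DESeq2 output was rounded to 4 significant digits. Ratios within a library use deposited FPKM. CPM are TMM-scaled.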

Additional observations from a re-analysis of the deposited data

How the results depend on the processing

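edgeR called 0 genes with all 4 libraries, and 2150 lay at an unadjusted p under 0.05. DESeq2 called 635, and with 1 library left out edgeR called between 0 and 14 (14 without Sham replicate 1, 5 without Sham replicate 2). The 10 junction genes had 0 calls under all of these settings. At an unadjusted p they numbered 0 to 4 with 1 library left out, and listed pathway genes numbered 6 to 23, against 19 with all libraries. The replicate block gave 12 listed genes and the same 4 junction genes, with 0 calls. Deviations of same-numbered libraries had a correlation across genes of -0.04. They include the atrial, fat and lung transcripts of single libraries, so this value cannot decide whether the numbers mark pairs. The main fit did not take the numbers as pairs. The share of higher genes at an unadjusted p was 61.2% with TMM, 82.0% without mitochondrial transcripts and TMM, and 86.9% in limma on log2(FPKM + 1). Those last scalings moved the median of all genes to 0.14 and 0.10.

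Gja1, Gja4, Gjc1, Tjp1, Pkp2, Jup and Dsg2 kept their sign in all 14 alternatives each. With 1 library left out, Gja5 lay between -1.16 and 0.53 (without Sham replicates 1 and 2), Cdh2 between -0.63 and 0.0088 (without MI replicates 2 and 1) and Dsp between -0.058 and 0.064 (without MI replicates 2 and 1). Dsp, at -0.01, became 0.0043 with no filter, 0.016 with a mean FPKM of at least 1 and 0.0064 without Sham replicate 2. It was 0.21 in limma with either pseudocount, 0.13 without mitochondrial transcripts and TMM, and 0.17 after subtracting the cardiomyocyte median. The difference in Gja1's share of connexin FPKM lay between -0.25 and 7.68 percentage points with 1 library left out. The cause of these shifts was not tested. A fit with 1 library in a group assumes that it varies like the other group.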

Other observations

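Pannexins, which form membrane channels and have a fold like that of connexins, were measured beside the rarer connexins. Of 19 such genes 10 passed the filter on low counts, and 1 was higher and 0 lower at an unadjusted p. That gene was Panx1, with 5.47 and 4.66 CPM in the MI libraries, against 2.86 and 2.51 CPM in the Sham libraries (log2 difference 0.91 ± 0.25). Without MI replicate 1, 0 genes of the list were higher and 1 was lower. Gja3, known as a lens connexin, had 7.62 and 8.01 CPM in MI and 8.34 and 9.31 CPM in Sham (-0.17 ± 0.18). Cdh22 was the 1 cadherin of 8 tested at an unadjusted p (-1.79 ± 0.55), at 0.50 and 0.34 CPM in MI against 1.86 and 1.05 CPM in Sham. No cadherin of the list was lower at that level with MI replicate 1 or MI replicate 2 left out.

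Of 12 kinases and trafficking genes that act on connexin43, 0 were higher and 1 lower at an unadjusted p. It was Wwp1, a ubiquitin ligase, with 41.2 and 42.3 CPM in the MI libraries and 53.0 and 54.3 CPM in the Sham libraries, and 0 of the list were lower when MI replicate 1, MI replicate 2 or Sham replicate 2 was left out. Of 16 cardiac transcription factors 1 was higher (Tbx18, named after its value was seen) and 3 lower. At an adjusted p under 0.05 DESeq2 called 0 of them higher and 2 lower, Tbx5 and Hand2. Tbx5, an activator of Gja5 in the mouse heart, had 13.4 and 12.4 CPM in MI, against 27.1 and 32.6 CPM in Sham (-1.21 ± 0.16). Hand2, a factor of ventricle formation, had -0.61 ± 0.14, and Irx4 of the ventricle -0.51 ± 0.17. Hopx and Gata4 differed by 0.06 ± 0.28 and -0.04 ± 0.16. The counts of factors were 0 higher and 1 lower without MI replicate 1, 2 and 4 without Sham replicate 1, and 1 and 1 in limma on log2(FPKM + 1). Of 8 smooth muscle and pericyte markers 1 was higher (Pdgfrb, 0.63 ± 0.20). With MI replicate 1 or MI replicate 2 left out 0 were higher. Leaving out Sham replicate 1 gave 3 higher and 2 lower. Of 9 macrophage markers 0 lay at an unadjusted p in edgeR, with 8 above 0 and a median of 0.42. In DESeq2 2 of them were higher at an unadjusted p, and in edgeR without MI replicate 2 there were 4. Of 10 mesothelial markers 0 lay at an unadjusted p with all libraries, and 3 were lower without MI replicate 1 or without Sham replicate 1. Of 4 Schwann cell markers tested 0 lay at that level, and 1 of 5 was lower without Sham replicate 1.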
